A study of Homo sapiens with 4 samples.

Results

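The proteasome subunit genes were described here in MCF12A cells, a line derived from non-tumorigenic human mammary epithelium that the labels list as a breast cancer line, wild-type or lacking the p2 promoter of *C1orf132* after cutting with CRISPR/Cas9. Members were the genes of the deposited table whose symbol is PSMA, PSMB, PSMC, PSMD, PSME, PSMF or PSMG followed by a number, other than *PSMB8* and *PSMB9*. This rule gave 43 of the 16811 genes. They comprise 7 core alpha, 7 core beta, 6 ATPase, 14 lid and base, 5 activator or inhibitor and 4 assembly genes. *PSMB3*, *PSMA8* and *PSMB11* were not analysed here. All 43 had a mean value of at least 10 over the libraries and were tested, together with 9547 other genes.

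The series compared unedited wild-type cells, labelled WT, with cells labelled *C1orf132* KO, which carry the p2 deletion and are called edited below. *C1orf132*, also named *MIR29B2CHG*, is the long non-coding host gene of miR-29b2 and miR-29c, and the comparison asks what removing its distal promoter does to the transcriptome. Poly(A) RNA was sequenced from 2 libraries a group, described as biological replicates, with both groups in the same medium of serum, EGF, hydrocortisone, cholera toxin and insulin. The edited cells came from colonies grown out of sorted single cells, so a colony's own history and the deletion cannot be told apart, and which colony gave each library is not given in the sources used here.

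The proteasome degrades proteins tagged with ubiquitin. Its barrel-shaped core particle is built of alpha subunits, which form the gate, and beta subunits, some of which cut peptide bonds. A regulatory particle caps the core, with a base whose ATPases unfold and thread the substrate and a lid that removes the ubiquitin chain. In cells exposed to interferon, inducible catalytic subunits and the *PSME1* and *PSME2* cap take part in making peptides for antigen presentation, whereas the transcription factor encoded by *NFE2L1* keeps the supply of ordinary subunits up.

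The promoters of 4 members are printed because they carry the clearest contrast in the data. *PSMC4* was the member called higher, *PSME3* encodes the activator with the highest edited value relative to wild-type, and *PSME1* and *PSME2* encode the activator with the lowest. Each window of 300 bases runs from 250 bases before the annotated start to 50 bases from it on, taken from RefSeq on GRCh38.p14 and written 5′ to 3′ on the strand of the gene. Capitals mark letters that match the core of an antioxidant response element (TGACNNNGC), an interferon response element (GAAANNGAA) or a STAT site (TTCNNNGAA) on either strand. The *PSMC4* window is chr19:39970915-39971214 on the plus strand, that of *PSME3* is chr17:42833147-42833446 on the plus strand, that of *PSME1* is chr14:24135944-24136243 on the plus strand, and that of *PSME2* is chr14:24146561-24146860 on the minus strand.
PSMC4: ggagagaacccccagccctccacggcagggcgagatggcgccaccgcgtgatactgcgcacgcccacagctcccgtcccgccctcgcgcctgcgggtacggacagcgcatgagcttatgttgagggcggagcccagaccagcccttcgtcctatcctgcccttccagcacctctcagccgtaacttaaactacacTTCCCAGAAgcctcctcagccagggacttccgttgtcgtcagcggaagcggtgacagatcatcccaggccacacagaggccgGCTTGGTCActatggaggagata
PSME3: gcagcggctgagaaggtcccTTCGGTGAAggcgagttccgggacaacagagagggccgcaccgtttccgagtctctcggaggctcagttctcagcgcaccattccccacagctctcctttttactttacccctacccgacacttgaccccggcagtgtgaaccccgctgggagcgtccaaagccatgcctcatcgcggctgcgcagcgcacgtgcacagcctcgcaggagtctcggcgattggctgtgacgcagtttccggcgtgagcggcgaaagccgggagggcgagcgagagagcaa
PSME1: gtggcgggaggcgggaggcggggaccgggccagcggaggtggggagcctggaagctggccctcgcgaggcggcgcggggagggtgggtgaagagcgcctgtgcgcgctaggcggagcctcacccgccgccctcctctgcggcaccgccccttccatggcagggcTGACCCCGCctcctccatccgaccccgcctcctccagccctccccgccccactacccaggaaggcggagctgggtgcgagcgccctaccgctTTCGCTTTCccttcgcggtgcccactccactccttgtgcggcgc
PSME2: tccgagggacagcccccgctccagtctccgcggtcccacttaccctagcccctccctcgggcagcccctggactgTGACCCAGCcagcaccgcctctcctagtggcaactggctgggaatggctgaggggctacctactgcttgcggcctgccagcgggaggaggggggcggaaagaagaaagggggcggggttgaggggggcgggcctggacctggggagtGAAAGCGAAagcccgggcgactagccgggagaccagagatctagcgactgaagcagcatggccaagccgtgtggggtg

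In *PSMC4* the STAT letters began 55 bases before the start and the antioxidant letters 28 bases into the transcript. *PSME3* held STAT letters 230 bases before its start and no match of the other 2 cores. *PSME1* held the antioxidant letters 86 bases before its start and the interferon letters from base 7 of the transcript, and *PSME2* held them 175 and 28 bases before its start. The letters TTCGCTTTC of *PSME1* and GAAAGCGAA of *PSME2* are the same interferon core read on opposite strands, and *PSMB10*, the inducible core subunit, held GAAAGCGAA 21 bases before its start. The same letters stood 33 bases before the start of *PSMG4*, an assembly chaperone gene, and *PSMA4*, *PSMB4* and *PSMC2* also matched the interferon core. A match of letters is a description of the window and not a binding site.

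RefSeq windows were found for 37 members, 45 windows in all, and none for *PSMA7*, *PSMB1*, *PSMB6*, *PSMB7*, *PSMD4* and *PSMG3*. The antioxidant core was in 28.9% of the member windows, against 13.4% of all 35116 windows and 14.9% of the 10317 windows of tested genes. The ETS core CCGGAAG was in 31.1% of member windows, 10.3% of all windows and 18.4% of tested-gene windows, and the YY1 core AAGATGGC in 13.3%, 2.89% and 5.59%. CCAAT was in 37.8%, 34.6% and 34.6%, and the SP/KLF box GGGCGG in 66.7%, 45.0% and 68.6%. The interferon core was in 15.6% of member windows, 8.11% of all windows and 6.46% of tested-gene windows, and the STAT core in 13.3%, 7.66% and 5.96%; these last cores were added after the values were seen. Both strands were searched, and 3 matches of different motifs overlapped in the member windows, in *PSMA4*, *PSME4* and *PSMG4*, each with the SP/KLF box.

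The values are normalised expression values from libraries of many cells. In them, fewer cells of a kind and less RNA per cell cannot be told apart. How they were normalised is not stated in the sources used here, and a per-length scale was inferred from steps between low values. The library kit does not mark strand, so reads of overlapping or antisense genes cannot be told apart either. Reads per sample are not stated. From the steps between low values, 1 read on a transcript of 1 kb was estimated at 0.0895 to 0.108 units, so the lowest member in each library stood for about 346 to 407 reads per kb. That estimate rests on few genes and on a step picked for its match, covers counting error only and is approximate. Values of *C1orf132* were not used here, and the edit was therefore not checked in these libraries. The 8 mammary epithelial markers summed to 4886 and 5683 after editing and to 10933 and 20156 without it, with *CDH1*, the epithelial cadherin, at 3.89 and 1.54 against 150.5 and 123. Other markers of that list went the other way, with *KRT8*, a luminal keratin, at 378 and 365 against 194 and 175 (1.01 on the log2 scale, limma adjusted p = 0.0449) and *KRT18*, its partner, at 0.89 on the log2 scale (adjusted p = 0.305). Of 7 fibroblast markers 2 were in the table, summing to 18.3 and 111 in edited and 23.0 and 29.2 in wild-type libraries, with *COL1A1* at -2.06 (adjusted p = 0.0420) and *DCN* at 3.30 (adjusted p = 0.0974) on the log2 scale. Of 6 hematopoietic markers 3 were in the table, summing to 42.0 and 60.0 in edited and 71.2 and 88.8 in wild-type libraries. None of 4 endothelial markers was in the table, and the part of these marker differences in the proteasome values was not tested.

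Most proteasome subunit genes stood higher in the edited than in the wild-type libraries by a moderate amount, and the activator genes *PSME1* and *PSME2* stood lower. Over the 43 members the median log2 fold change (edited minus wild-type, on log2(value + 1)) was 0.53, against 0.09 over the 9590 genes tested. Many of those genes are lower than the members. Among genes with a mean of at least 50, the medians were 0.55 for 41 members and 0.18 for all tested. The 56.7%, 38.3% and 26.9% that follow cover all 9590 and were not taken at that filter. The log2 fold change was above 0 in 36 of the 43 members, or 83.7%, against 56.7% of all tested genes. Both edited libraries lay above both wild-type libraries in 30 members, or 69.8%, where 38.3% of all tested genes did so. Both lay below in 4 members, or 9.30%, where 26.9% of all tested genes did so. The 4 were *PSME1*, *PSME2*, *PSMA6* and *PSMD5*.

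Single members seldom passed the test with 2 libraries a group. At an adjusted p under 0.05 (limma on all tested genes with Benjamini-Hochberg adjustment), 1 of the 43 members was called, or 2.33%, against 7.09% of all tested genes. That member, *PSMC4*, was higher in edited cells, where 2.89% of all tested genes were called higher. At an unadjusted p under 0.05, 20 of the 43 members were higher and 1 lower. Of the 9590 tested genes 1789 (18.7%) were higher and 1306 (13.6%) lower. The share of called members was thus below the background while the share of members with separated groups was above it, and no test over the members as a list was made. An exact permutation test of a single value cannot go below p = 0.333 with 2 libraries against 2.

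**Figure D1:**
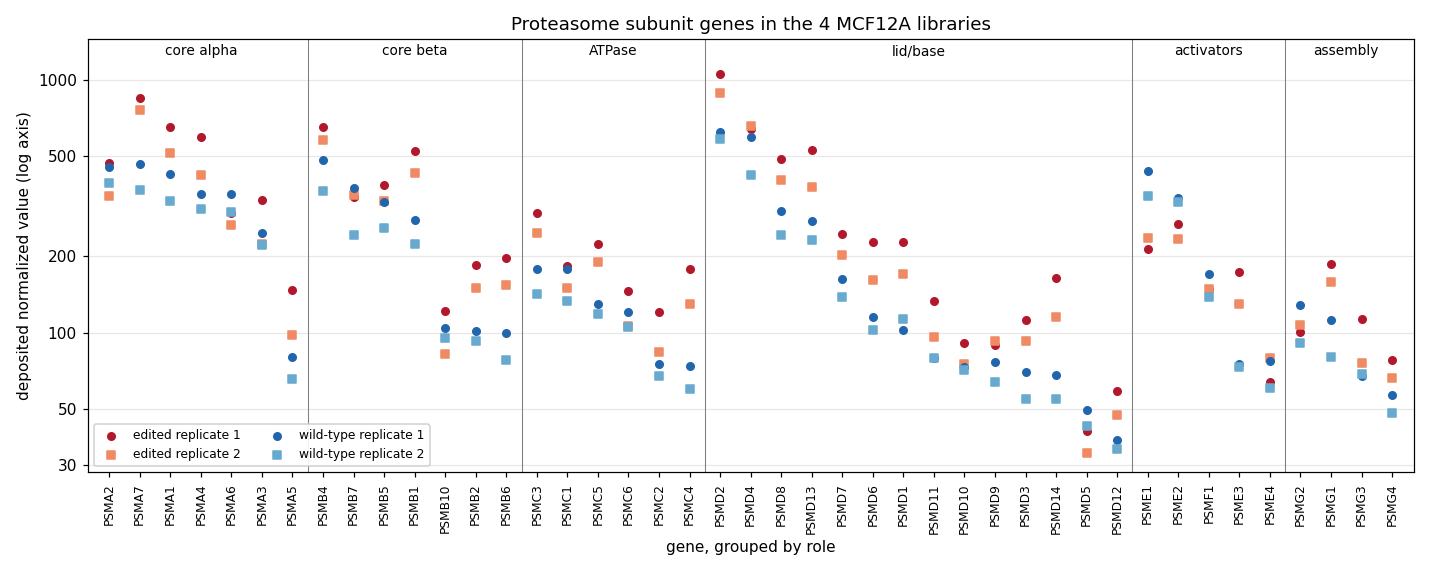
Deposited normalised value (log axis) of each of the 43 proteasome subunit genes in edited replicates 1 and 2 (red circle, orange square) and wild-type replicates 1 and 2 (dark and light blue), grouped by role and ordered by mean level. Red and orange points lie above both blue points in 30 of the 43 genes, where 38.3% of all tested genes have that order. *PSME1*, *PSME2*, *PSMA6* and *PSMD5* show the opposite order.

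**Figure D2:**
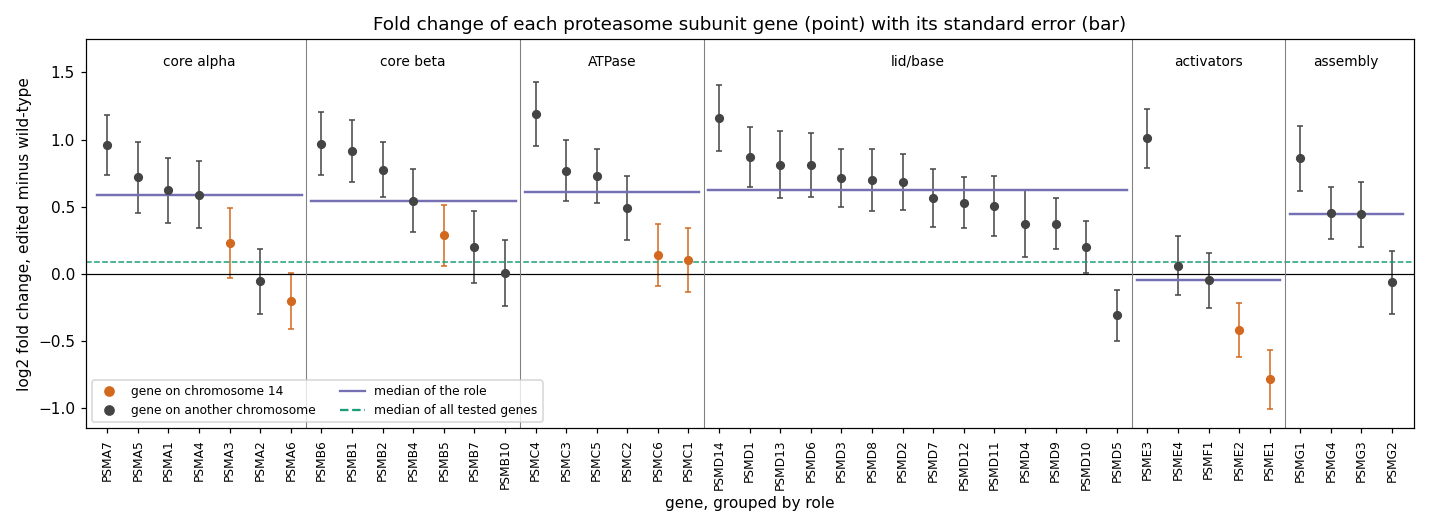
Log2 fold change (edited minus wild-type) of each proteasome subunit gene with its standard error from limma, grouped by role, with chromosome 14 genes in orange. Purple lines are role medians, from 0.45 to 0.62 in the core, ATPase, lid/base and assembly roles and -0.05 in the activators, and the dashed line is the median of all tested genes, 0.09.

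The 7 core alpha genes had a median log2 fold change of 0.59, and of 0.34 without edited replicate 1. *PSMA7*, a subunit of the gated alpha ring, had the largest difference of the role, at 846 (replicate 1) and 757 (replicate 2) after editing, against 462 and 365 in the same order in the wild type. The groups did not overlap, and the log2 fold change was 0.96 (SE 0.23, adjusted p = 0.0617 from limma), which missed the threshold. *PSMA6*, another ring subunit, was at 297 and 267 in edited and 352 and 299 in wild-type libraries. Its edited libraries lay just below the wild-type ones (log2 fold change -0.20, SE 0.21, adjusted p = 0.529), and 4 annotated pseudogenes could share its reads. Members that stood higher have annotated pseudogenes too, among them *PSMD7* (4) and *PSMA7*, *PSMD2*, *PSMD8* and *PSMD14* (1 each). *PSMA1* was 0.62, *PSMA4* 0.59 and *PSMA5* 0.72 on the log2 scale, each with separated groups and adjusted p of 0.147, 0.170 and 0.130. *PSMA2* was at -0.06 and *PSMA3* at 0.23, both with overlapping groups.

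The 7 core beta genes had a median of 0.55, and of 0.34 without wild-type replicate 2. The log2 fold changes of the catalytic subunits ran from 0.20 to 0.97. Relative to the medians of their own chromosomes they were 0.87 for *PSMB6*, 0.75 for *PSMB5* and 0.38 for *PSMB7*. The differences between these subunits were not tested. *PSMB6*, which carries the caspase-like activity, was at 196 and 154 in edited and 99.7 and 78.2 in wild-type libraries, a ratio of 1.97. Both edited values were well above both wild-type values, with a log2 fold change of 0.97 (SE 0.23, adjusted p = 0.0635 from limma). *PSMB5*, which carries the chymotrypsin-like activity, was at 384 and 330.4 against 327 and 259.8. Its groups were separated by a narrow margin (log2 fold change 0.29, SE 0.23, adjusted p = 0.414), and under cyclic loess scaling the sign turned (-0.03). *PSMB7*, which carries the trypsin-like activity, was at 345 and 350.3 against 374 and 243. The 2 wild-type libraries bracketed the edited ones (log2 fold change 0.20, SE 0.27, adjusted p = 0.632), and the sign turned under quantile normalization (-0.03) and cyclic loess (-0.12).

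*PSMB10*, the inducible subunit that replaces *PSMB7* in the immunoproteasome, was at 122 and 82.2 in edited and 104.2 and 95.0 in wild-type libraries. The edited libraries lay on either side of the wild-type ones, and the log2 fold change was 0.01 (SE 0.25, adjusted p = 0.984), with a sign below 0 under equal totals, median of ratios, quantile and cyclic loess scaling (-0.16 to -0.01). *PSMB10* was thus the beta gene with the smallest difference. Among the structural beta subunits, which have no catalytic site, *PSMB1* had a log2 fold change of 0.92, *PSMB2* of 0.78 and *PSMB4* of 0.55, each with both edited libraries above both wild-type libraries. Their adjusted p were 0.0701, 0.0743 and 0.175.

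The 6 ATPase genes, whose products form the ring that unfolds substrates, had a median of 0.61. *PSMC4* rose from wild-type values of 73.5 (replicate 1) and 59.8 (replicate 2) to edited values of 178.5 and 130.3. The lowest edited value was above the highest wild-type value, the ratio of means was 2.32, and the log2 fold change was 1.19 (SE 0.24, adjusted p = 0.0471 from limma). The call was lost with no filter on low values (limma adjusted p = 0.0540), under cyclic loess scaling (0.0503) and with a replicate block (0.0643). It was also lost without edited replicate 1, wild-type replicate 1 or wild-type replicate 2. The difference stayed between 0.96 and 1.42 on the log2 scale. *PSMC1* had the smallest difference, with 183 and 150.1 in edited and 178 and 133 in wild-type libraries (0.10 on the log2 scale, SE 0.24, adjusted p = 0.791). Its groups overlapped, and 13 annotated pseudogenes could share its reads. *PSMC3* was at 0.77, *PSMC5* at 0.73 and *PSMC2* at 0.49 on the log2 scale with separated groups, and *PSMC6* at 0.14 with overlapping groups.

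The 14 PSMD genes had a median of 0.62, and 13 of them had both edited libraries above both wild-type libraries, where 38.3% of all tested genes did. *PSMD14*, the lid enzyme that cuts the ubiquitin chain from the substrate, was at 164 and 115 in edited and 67.9 and 54.7 in wild-type libraries. The groups were far apart (ratio 2.28, log2 fold change 1.16, SE 0.25), and the adjusted p of 0.0520 was just above the threshold. All 8 lid genes among the members (*PSMD3*, *PSMD6*, *PSMD7*, *PSMD8*, *PSMD11*, *PSMD12*, *PSMD13* and *PSMD14*) had separated groups, with log2 fold changes from 0.50 to 1.16 and a median of 0.71. Over the members of the base that are no ATPases, *PSMD1* and *PSMD2*, the large scaffold subunits, were at 0.87 and 0.68, and *PSMD4*, a ubiquitin receptor, at 0.37. *PSMD2* was the most abundant member, with 1055 and 888 in edited and 621 and 584 in wild-type libraries.

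*PSMD5*, *PSMD9* and *PSMD10* share the PSMD name but encode chaperones that assemble the base and leave the finished particle. Their log2 fold changes were lower than those of all 8 lid genes. *PSMD5* was at 40.9 and 33.5 in edited and 49.3 and 42.9 in wild-type libraries, and was the only PSMD gene with both edited libraries below both wild-type libraries (log2 fold change -0.31, SE 0.19, adjusted p = 0.309 from limma). *PSMD5* lies on chromosome 9, where the other tested genes had a median of -0.18, and its 20 nearest tested genes had a median of -0.50. It stood 0.12 below the first (offset -0.12) and 0.19 above the second. *PSMD9* was at 0.37 (adjusted p = 0.232) and *PSMD10* at 0.20 (adjusted p = 0.504) on the log2 scale. The difference between chaperones and lid genes was not tested.

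The activators were the role with members far apart in both directions, and their median was -0.05, which turned to 0.11 without wild-type replicate 1. *PSME3*, which caps the core as a ring of its own in the nucleus, was at 174 and 130.0 in edited and 75.4 and 72.9 in wild-type libraries. Both edited values were far above both wild-type values, with a ratio of means of 2.05 (log2 fold change 1.01, SE 0.22, adjusted p = 0.0524 from limma), just above 0.05. *PSME1*, a subunit of the interferon-inducible cap, was at 214 and 238 in edited and 436 and 347 in wild-type libraries. Here the order was turned, with a ratio of 0.577 and a log2 fold change of -0.78 (SE 0.22, adjusted p = 0.0829). It passed the threshold under 3 of 4 other scalings, at -0.90 with equal totals (adjusted p = 0.0444), -1.01 with quantile normalization (0.0363) and -1.10 with cyclic loess (0.0354). Median of ratios gave no pass (-0.80, adjusted p = 0.0726), nor did leaving out any 1 library (0.0979 to 0.260).

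*PSME2*, its partner in that cap, was at 268 and 234 in edited and 342 and 329.8 in wild-type libraries. Both edited values were below both wild-type values, with a log2 fold change of -0.42 (SE 0.20, adjusted p = 0.208), and 6 annotated pseudogenes could share its reads. *PSME4*, a large nuclear activator, was at 0.06 (adjusted p = 0.871) and *PSMF1*, which inhibits the core, at -0.05 (adjusted p = 0.896), each with overlapping groups. The adjusted p are from the same limma fit, and none of the 5 activator and inhibitor genes was called there.

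The 4 PSMG genes encode chaperones that assemble the core and had a median of 0.45, and of 0.25 without edited replicate 1. *PSMG1* was at 188 and 159 in edited and 112 and 80.1 in wild-type libraries. Its groups were separated (log2 fold change 0.86, SE 0.24, adjusted p = 0.0828 from limma). *PSMG2*, which pairs with *PSMG1*, was at 100.4 and 107 against 129 and 90.9. The wild-type libraries bracketed the edited ones (log2 fold change -0.06, SE 0.23, adjusted p = 0.878). *PSMG3* and *PSMG4*, which form the other pair, were at 0.44 and 0.45 with separated groups.

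On the deposited scale, inferred to be per length, mean levels of the members in wild-type cells ranged 16.7-fold. The lowest was 36.2 for *PSMD12* and the highest 602 for *PSMD2*. In edited cells the mean levels ranged 26.1-fold, from 37.2 for *PSMD5* to 971 for *PSMD2*. The core alpha genes had the highest median level of the roles, 331 in wild-type and 407 in edited cells, followed by the core beta genes at 252 and 348. The ATPase genes, at 119 and 160.5, lay close together, with a 2.40-fold range in wild-type and 2.67-fold in edited cells. Lid and base genes had median levels of 93.4 and 167, and assembly genes of 81.9 and 99.2. *PSMD5* and *PSMD12* exchanged places at the bottom of the order, since *PSMD5* was the lower of them in both edited libraries and *PSMD12* in both wild-type libraries.

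The 43 values added up to 12333 (replicate 1) and 10252 (replicate 2) after editing, and to 8986 and 7436 without the edit. The groups did not overlap, with means of 11292 ± 1471 and 8211 ± 1096 (SD, n = 2), a ratio of 1.38. As a share of each library's total the members took 0.745% and 0.620% in edited and 0.560% and 0.515% in wild-type libraries, a ratio of 1.27. Replicates of the same group also differed across the members. Edited replicate 1 was above edited replicate 2 by a median of 0.28 on the log2 scale and in 36 of 43 members. Over all tested genes that median was 0.03, with 53.4% above 0. Wild-type replicate 1 was above wild-type replicate 2 by a median of 0.25 and in 40 of 43 members. Over all tested genes that median was 0.11, with 64.0% above 0. Of the 4 edited minus wild-type library differences the smallest, edited replicate 2 minus wild-type replicate 1, had a member median of 0.26, similar to these differences between replicates, and the largest was 0.82.

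Where a member lies in the genome went along with its difference. Of the 43 members, 7 lie on chromosome 14 (*PSMA3*, *PSMA6*, *PSMB5*, *PSMC1*, *PSMC6*, *PSME1* and *PSME2*), and the other 36 are spread over the rest of the 17 chromosomes that carry members. The chromosome 14 members had a median log2 fold change of 0.10, which turned below 0 under equal totals (-0.01), quantile normalization (-0.05) and cyclic loess (-0.13), whereas the other members had a median of 0.61. It was also below 0 without edited replicate 1 (-0.08) or wild-type replicate 2 (-0.10), and higher without edited replicate 2 (0.25) or wild-type replicate 1 (0.24). The 305 other tested genes of chromosome 14 had a median of -0.46, and 266 of them were below 0. Relative to the median of its own chromosome, the typical chromosome 14 member stood as far up as the typical member elsewhere, with median offsets of 0.56 and 0.59 on the log2 scale. *PSMB5*, at 23025851 to 23035220 on chromosome 14 (GRCh38.p14), was 0.75 above its chromosome, and *PSMC6*, at 52707200 to 52728590, was 0.60 above it. Of the other chromosomes with members, 7, 9 and 18 also had medians below 0, at -0.19, -0.18 and -0.03. No test was made of the offsets from chromosome medians.

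*PSME1* and *PSME2* lie next to each other on chromosome 14, at 24136194 to 24138962 and 24143365 to 24146610. *PSME1* was 0.32 below the chromosome median (offset -0.32) and *PSME2* close to it (0.04). The other 5 members of the chromosome were 0.25 to 0.75 above it, with a median of 0.60. Measured against the 20 nearest tested genes instead, the offsets were -0.26 for *PSME1*, 0.10 for *PSME2* and a median of 0.69 for the other 5, and the median for members elsewhere was 0.57. In all, 37 of 43 members stood above the median of their chromosome and 39 above that of their nearest 20 genes. *PSMB10* and *PSMF1*, at -0.26 each from their chromosomes 16 and 20, were the members farthest below after *PSME1*, and *PSMD14*, at 1.06 above chromosome 2, was the farthest above.

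**Figure D3:**
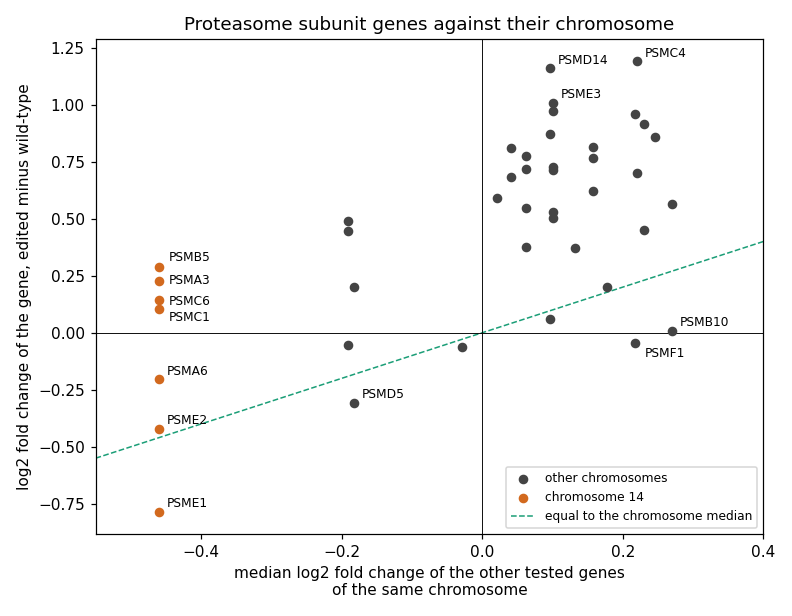
Log2 fold change of each proteasome subunit gene (vertical axis) against the median log2 fold change of the other tested genes on its chromosome (horizontal axis), with chromosome 14 genes in orange and a dashed line where they are equal. Of the 43 points 37 lie above the line, and among the chromosome 14 genes at -0.46 only *PSME1* lies below it.

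Ratios between members within 1 library do not depend on a single scaling factor per library, though quantile and cyclic loess scaling can change them, and the pairs were chosen after their values were seen. *PSME1* over *PSME3*, which compares the caps, was 1.23 and 1.83 in edited and 5.79 and 4.76 in wild-type libraries, so that the ratio was lower in both edited libraries. *PSMB6* over *PSMB5* was 0.512 and 0.466 in edited against 0.305 and 0.301, and *PSMB7* over *PSMB6* 1.76 and 2.27 against 3.75 and 3.11. The deposited values of the catalytic genes thus stood in different proportions in the groups. Relative to the medians of their own chromosomes, the log2 fold changes were 0.87 for *PSMB6*, 0.75 for *PSMB5* and 0.38 for *PSMB7*. *PSMC4* over *PSMC1*, both of the same ATPase ring, was 0.975 and 0.868 in edited and 0.413 and 0.449 in wild-type libraries. *PSMB10* over *PSMB7*, inducible over ordinary subunit, was 0.354 and 0.235 against 0.278 and 0.390, with no separation of the groups. *PSME1* over *PSME2* was 0.797 and 1.02 against 1.28 and 1.05, with the groups separated by a narrow margin. Being picked for their values, these ratios were not tested. *PSMB5*, *PSMC1*, *PSME1* and *PSME2* lie on chromosome 14, where the other tested genes had a median log2 fold change of -0.46. The part of the chromosome in the ratios was not tested.

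**Figure D4:**
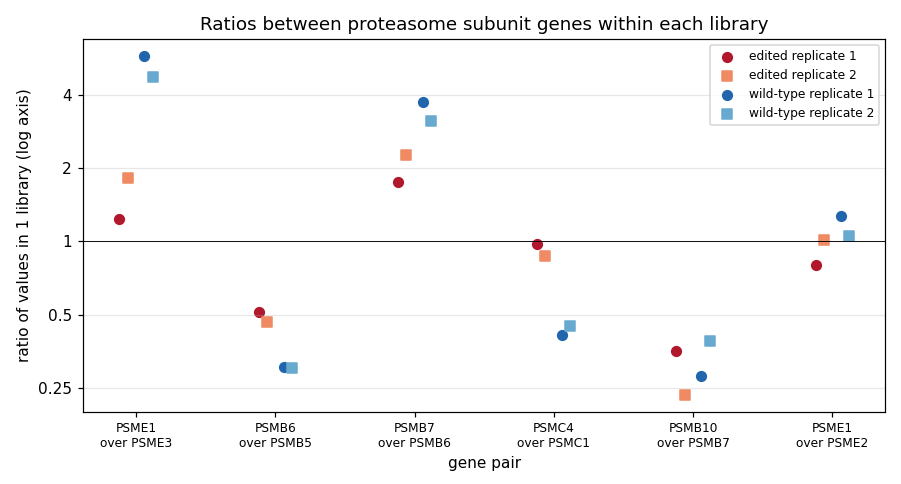
Ratio of the deposited values of gene pairs within each library (log axis), with edited replicates in red and orange and wild-type replicates in dark and light blue. *PSME1* over *PSME3* is at most 1.83 with the edit and at least 4.76 without it, whereas *PSMB10* over *PSMB7* overlaps between the groups. *PSMB5*, *PSMC1*, *PSME1* and *PSME2* lie on chromosome 14.

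Proteasome genes that the naming rule leaves out were set beside the members. The 15 names listed stand for 13 genes, of which 11 were tested. Of these 0 were called by limma, against 7.09% of all tested genes, with 3 higher and 0 lower at an unadjusted p under 0.05, against 18.7% and 13.6% of all tested genes. Their median log2 fold change was 0.36, and 0.16 without wild-type replicate 2. *POMP*, the maturation factor of the core, was at 291 and 215 in edited and 184 and 129 in wild-type libraries (0.70 on the log2 scale, adjusted p = 0.150). *ADRM1*, a ubiquitin receptor of the base, was at 173 and 159 against 118 and 92.6 (0.66, adjusted p = 0.103). *SEM1*, the smallest lid subunit, was at 462 and 396 against 482 and 426 (-0.08, adjusted p = 0.814), with overlapping groups, unlike the 8 lid genes among the members. *USP14*, a deubiquitinase that binds the base, was at 0.71 (adjusted p = 0.0797).

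Genes that control proteasome transcription, or process the factors that do so, were mostly at or below 0. Of 10 listed, 9 were tested, 6 were below 0, and their median was -0.18, or -0.10 without edited replicate 1, -0.47 without edited replicate 2 and -0.11 without wild-type replicate 1. With 1 call they stood beside 7.09% of all tested genes. *IRF1*, a transcription factor of the interferon response that acts on inducible proteasome genes, fell from 94.2 and 109 in wild-type to 16.4 and 25.5 in edited libraries (-2.25 on the log2 scale, adjusted p = 0.0140 from limma). The call was lost without wild-type replicate 1 (adjusted p = 0.0726) or wild-type replicate 2 (0.128). *NFE2L1* was at 155 and 204 in edited and 333 and 304 in wild-type libraries. Its edited values were below the wild-type ones, at -0.84 on the log2 scale (adjusted p = 0.0781 from limma). Its adjusted p ran from 0.0472 to 0.285 over the other scalings and left-out libraries, and was under 0.05 with quantile normalization, with cyclic loess and without edited replicate 2 alone. *MAFF*, a small Maf partner of such factors, was at 0.46 (adjusted p = 0.736), with overlapping groups.

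Among 16 genes of the ubiquitin system upstream of the proteasome, 14 were tested and 0 called by limma, with 2 higher and 0 lower at an unadjusted p under 0.05, against 18.7% and 13.6% of all tested genes. Their median was 0.28, and 0.13 without wild-type replicate 2, 0.09 with cyclic loess, 0.15 with quantile normalization and 0.16 with equal totals. *VCP*, the unfoldase, was at 772 and 638 in edited and 437 and 464 in wild-type libraries, with separated groups (0.64 on the log2 scale, adjusted p = 0.109). *UBA1*, the main ubiquitin-activating enzyme, was at 0.53 (adjusted p = 0.146) and *SQSTM1*, an autophagy receptor for ubiquitin, at 0.42 (adjusted p = 0.603), the latter with overlapping groups.

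The COP9 signalosome and the translation factor eIF3 are complexes built on the same plan as the lid. Of the COP9 genes 9 of 10 were tested, with a median of 0.39. It was 0.27 with equal totals or without wild-type replicate 2, and 0.54 without edited replicate 2 or wild-type replicate 1. The signalosome had 1 call, where 7.09% of all tested genes were called. *COPS8*, one of its subunits, rose from 56.7 and 71.2 to 231 and 173 (1.64 on the log2 scale, limma adjusted p = 0.0251), a call lost without wild-type replicate 1 (1.48, adjusted p = 0.103) or wild-type replicate 2 (1.80, adjusted p = 0.157). *GPS1* was at 0.80 (adjusted p = 0.0792) and *COPS7A* at 0.48 (adjusted p = 0.128), both with separated groups. The median of the 13 eIF3 genes was 0.48, but 0.15 without wild-type replicate 2, 0.79 without wild-type replicate 1, 0.21 with quantile normalization and 0.17 with cyclic loess. They had 0 calls by limma, with 4 higher and 0 lower at an unadjusted p under 0.05, against 18.7% and 13.6% of all tested genes, and *EIF3I* at 0.71, *EIF3J* at 0.70 and *EIF3K* at 0.68 led them. The 8 lid genes among the members had a median of 0.71, which leaves out *SEM1* at -0.08, and these differences between complexes were not tested.

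The 8 genes of the cytosolic chaperonin TRiC/CCT, a folding machine of ringed subunits, served as an unrelated complex of similar build. All 8 had both edited libraries above both wild-type libraries, where 38.3% of all tested genes did, with a median of 0.79, from 0.51 to 0.77 under the other scalings. *CCT2* was at 1.08, *TCP1* at 0.99 and *CCT7* at 0.92 on the log2 scale, with adjusted p of 0.0635, 0.0690 and 0.0919. None of the 8 was called by limma, with 5 higher and 0 lower at an unadjusted p under 0.05, against 18.7% and 13.6% of all tested genes. Differences of the size and direction seen in the proteasome subunits were thus measured in the genes of another large complex too.

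**Figure D5:**
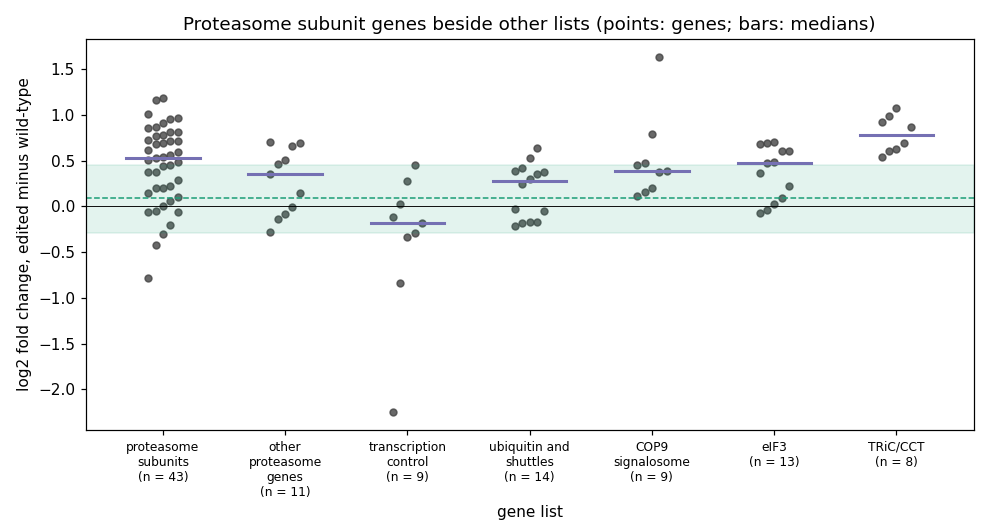
Log2 fold change (edited minus wild-type) of single genes (points) with list medians (purple bars) for the 43 proteasome subunit genes and 6 other lists, with the middle range of all tested genes from -0.29 to 0.46 shaded and their median of 0.09 dashed. The chaperonin genes have the highest median, 0.79, and the transcription control genes the lowest, -0.18.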

How the data were processed

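The authors deposited 1 table of normalised expression signal for 16811 genes in 2 edited and 2 wild-type libraries (single-end reads, poly(A) selection). Per the labels, their processing notes name HISAT2, Salmon and hg38, without versions or roles. The deposited values are not whole counts. They carried steps that depend on transcript length, but only 16.0 to 19.6% of low values of single-transcript genes were whole multiples of a read within 0.02 read. By tolerance alone 4% would be, for a step fixed beforehand. The step was picked in each library for the largest excess, so 4% understates what picking alone would give. No count model was fitted.

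Values were compared as log2(value + 1) over the 9590 genes with a mean of at least 10, using limma 3.58.1 in R 4.3.3 (lmFit, eBayes with trend, two-sided), with Benjamini-Hochberg adjustment over all of them and a threshold of 0.05. A fold change on this scale understates the change of low genes. Groups came from the sample titles. The p-values measure the spread between these libraries only. Members and lists were chosen with earlier results of these data known. Full values are given for the catalytic subunits, *PSMB10*, called members, and the largest increase and decrease of each role. From the other lists they are given for called genes, *POMP*, *ADRM1*, *SEM1*, *NFE2L1* and *VCP*. Other genes among the 3 largest differences of a list are given without library values. Positions and promoters were RefSeq's on GRCh38.p14, matched by symbol (12499 genes) or synonym (799), leaving 3513 unmatched. The fit was also run on simulated libraries with independent genes. These lack the shifts between replicates that many members share, so no support is drawn from them. Other scalings, filters, pseudocounts, a replicate block and left-out libraries were tried. Python 3.11.15 with numpy 2.4.6 and pandas 2.3.3 was used.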

Additional observations from a re-analysis of the deposited data

How the results depend on the processing

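The median of the members stayed above 0 under every setting tried. It ran from 0.31 with cyclic loess to 0.55 with a mean of at least 50, where 41 of the 43 were tested. When 1 library was left out it ran from 0.39 to 0.73. With equal totals the median of all tested genes moved from 0.09 to -0.03, and the members stood 0.44 above it in both. They stood 0.33 above it with quantile normalization and 0.32 with cyclic loess. Among genes with a mean of at least 50, the median of all 4192 tested was 0.18, and the members stood 0.37 above it. The number of called members was less stable, and under no setting was its share well above that of all tested genes. It was 1 in the main fit, 2 with equal totals (*PSMC4* higher, *PSME1* lower, 4.65% against 7.78% of all tested genes), 3 with quantile normalization (*PSMC4* and *PSMD14* higher, *PSME1* lower, 6.98% against 7.67%), 4 with a mean of at least 50 (*PSMB6*, *PSMC4*, *PSMD14* and *PSME3* higher, 9.76% against 10.0%), 1 with cyclic loess (*PSME1* lower), and 0 with no filter or at 0.001. Leaving out 1 library gave 0 to 7 calls: 7 without edited replicate 2, or 16.3% where 16.2% of all tested genes were called, and 0 without any of the other 3, where 5.05% (edited replicate 1), 0.168% (wild-type replicate 1) and 0.0423% (wild-type replicate 2) of all were called. Fewer samples in a group change what can be called, and 2 libraries a group limit the precision of every value above.

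Role medians that moved by more than the replicate spread did so with cyclic loess, to 0.27 in the core alpha, 0.23 in the core beta, 0.39 in the lid and base and -0.27 in the activator genes, and with quantile normalization, to 0.28 in the core beta and 0.44 in the lid and base genes. The members outside chromosome 14 had a median of 0.36 with cyclic loess and 0.40 with quantile normalization. The ratio of summed values was 1.18 with quantile normalization and 1.14 with cyclic loess. Under cyclic loess both edited libraries lay below both wild-type libraries in 7 of the 43 members. That order held in 32.9% of all tested genes under the same scaling. The cause was not tested. With 1 library left out, the medians were 0.25 to 0.65 in the assembly genes and 0.44 to 0.80 in the members outside chromosome 14. Every remaining edited value then lay below every remaining wild-type value in 4 to 7 members, and in 32.7% to 36.9% of all tested genes.

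Members near 0 changed sign, none of them called. With cyclic loess *PSMA3* was -0.071, *PSMB5* -0.034, *PSMB7* -0.12, *PSMB10* -0.16, *PSMC1* -0.13, *PSMC6* -0.048 and *PSME4* -0.078. With equal totals *PSMB10* was -0.11, *PSMC1* -0.014 and *PSME4* -0.056. With median of ratios *PSMB10* was -0.0084. With quantile normalization *PSMB7* was -0.030, *PSMB10* -0.13, *PSMC1* -0.052 and *PSME4* -0.014. With 1 library left out, values ran from -0.27 to 0.16 for *PSMA2*, -0.059 to 0.52 for *PSMA3*, -0.11 to 0.51 for *PSMB7*, -0.27 to 0.29 for *PSMB10*, -0.10 to 0.31 for *PSMC1*, -0.083 to 0.37 for *PSMC6*, -0.11 to 0.24 for *PSME4*, -0.20 to 0.11 for *PSMF1* and -0.31 to 0.19 for *PSMG2*.

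Libraries share replicate numbers between the groups. Over all tested genes same-numbered libraries did not deviate together (correlation -0.14), so the numbers were not taken as pairs in the main fit. That correlation does not describe the members. Across them replicate 1 was above replicate 2 in both groups, by a median of 0.28 in edited and 0.25 in wild-type libraries on the log2 scale. Whether the numbers mark pairs for the members was not tested. With a replicate block 0 members were called (*PSMC4* adjusted p = 0.0643 from limma) and 133 of all tested genes, and *COPS8* was no longer called (adjusted p = 0.0661), while *IRF1* was (adjusted p = 0.0412). With the crossed pairing, added after seeing the data, 1 member and 1002 of all tested genes were called.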
